A study of Mus musculus with 6 samples.

Results

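The PPAR, ERR and PGC-1 regulators are 10 genes that set the transcription of fatty acid oxidation and mitochondrial genes in heart muscle. They are Ppara, Ppard, Pparg, Rxra, Ppargc1a, Ppargc1b, Esrra, Esrrb, Esrrg and Nrf1. They were found in the deposited expression table by the Ensembl identifier that GENCODE release M21 pairs with each symbol, and all 10 were present among its 54532 gene identifiers. Messenger RNA was sequenced from the left ventricle of 3 mice with heart failure with preserved ejection fraction (HFpEF) and 3 control mice (Chow), 1 library per mouse. All were adult male wild type C57BL/6 mice. The HFpEF mice ate a diet with 60% of kcal from fat and for 12 weeks drank water holding 0.5 g/L of L-NAME, which blocks nitric oxide synthase. The Chow mice ate standard chow and drank plain water, so diet and drug changed together and their separate effects cannot be told apart.

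The PPARs are receptors for fatty acids and their derivatives, and each binds DNA as a pair with a retinoid X receptor such as the product of Rxra. The estrogen-related receptors (ERRs, from Esrra, Esrrb and Esrrg) belong to the same superfamily and need no known hormone. PGC-1α and PGC-1β, from Ppargc1a and Ppargc1b, do not bind DNA but dock on these receptors and on NRF1 and raise the transcription of their target genes. In the adult heart, PPARα is best known for fatty acid uptake and oxidation, the ERRs for the citric acid cycle and respiratory chain, and NRF1 for respiratory chain subunits and the import and copying of mitochondrial genes.

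Levels are in FPKM, a unit the authors deposited, in which fragments are divided by exon length and by a number for each library. Read numbers recovered from the FPKM totalled 13076772 to 15574914 per Chow library and 13461735 to 16027084 per HFpEF library. The library divisor implied by the FPKM was 11734336 to 14239712 in Chow and 13847565 to 19316914 in HFpEF. In HFpEF replicate 3 it was 19316914, against 15196287 recovered reads. The deposited values are thus not scaled by recovered reads alone. HFpEF replicate 3 stood apart from the other libraries. On the first principal component, with 42.3% of the variance, it lay at 75.5, HFpEF replicates 1 and 2 at 11.6 and 12.7, and the Chow libraries between -35.8 and -31.7. Mitochondrially encoded genes took 7.17% of its reads, against 20.1% to 26.0% in the other 5 libraries. The summed FPKM of 8 fibroblast markers was 5522 in it, against 425.0 in the lowest HFpEF library and 220.4 to 258.5 in Chow. The labelled tissue was checked with 12 ventricular cardiomyocyte markers, whose summed FPKM was 19646 to 21767 in Chow and 9812 to 15520 in HFpEF. Myh6, a cardiac myosin heavy chain, was 2800 to 3373 FPKM in Chow and 1541 to 2639 in HFpEF. In whole ventricle, fewer cells of a type and less RNA per cell cannot be told apart.

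HFpEF and Chow were compared with limma on log2(FPKM + 0.1) over 14227 genes, and all 10 regulators passed the minimum of 0.5 FPKM in at least 3 libraries. Every HFpEF library was below every Chow library for 8 of the 10 regulators, which was so for 19.8% of all tested genes. The exceptions were Pparg and Nrf1, whose groups overlapped. An unadjusted p under 0.05 with a lower level in HFpEF was reached by 6 regulators (Ppara, Ppard, Rxra, Ppargc1b, Esrra and Esrrb), against 13.1% of all tested genes, and with a higher level by 0. After Benjamini-Hochberg adjustment over all tested genes, 0 of the 10 regulators had a limma p under 0.05, against 0.0984% of all tested genes. Their adjusted p ran from 0.117 to 0.834. With a log2 fold change of 2 or more in either direction also required, the count was also 0, against 0.0562%. The median log2 fold change was -0.47 over the 10 regulators and -0.01 over all tested genes. Without HFpEF replicate 3 the median of the regulators was -0.29. In that fit 7 regulators were lower at an unadjusted p under 0.05, against 15% of all tested genes. Of these, Ppara, Esrra and Esrrb fell at an adjusted p under 0.05, against 8.35% of all tested genes called in either direction and 5.5% called lower. Without Chow replicate 1, 2 or 3, the number at an unadjusted p under 0.05 was 2 each time, against 7.94%, 7.13% and 8.08% of all tested genes in the lower direction, and 0 regulators passed the adjusted p, against 0.0141% in each of these fits. Without HFpEF replicate 1 or 2, 6 and 5 regulators were at an unadjusted p under 0.05, against 13.8% and 14.1% in the lower direction, and 0 passed the adjusted p, against 0.0211% and 0.373%.

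**Figure D1:**
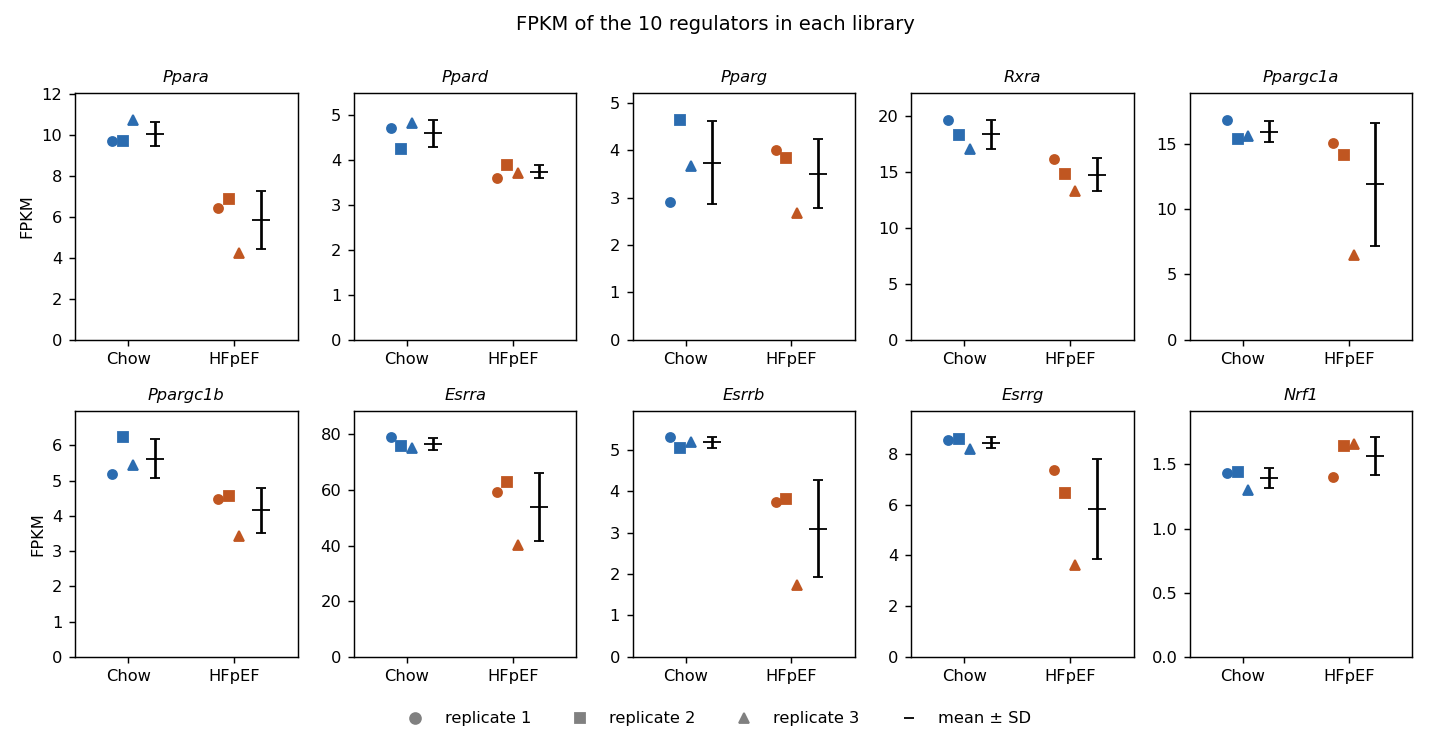
FPKM (vertical axis, linear, from 0) of each of the 10 regulators in the 3 Chow and 3 HFpEF libraries. Symbols mark the replicate, and bars give the group mean ± SD. The groups do not overlap for 8 genes and overlap for Pparg and Nrf1, and HFpEF replicate 3 is the lowest HFpEF library in 8 panels.

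Among the PPARs, Ppara (ENSMUSG00000022383; GRCm38 chromosome 15 from 85734983 to 85802819, plus strand) had the lowest p of the 10 genes. In the order of the replicate numbers, which is kept below, Chow mice had 9.68, 9.69 and 10.7 FPKM and HFpEF mice 6.42, 6.86 and 4.24. The highest HFpEF library was thus well below the lowest Chow library, and HFpEF replicate 3 was the lowest of all. Chow averaged 10.04 ± 0.606 FPKM (SD, n = 3) and HFpEF 5.84 ± 1.41 (SD, n = 3), or 58.2% of Chow. The log2 fold change was -0.80 (95% CI -1.26 to -0.34, adjusted p = 0.117 from limma). It was -0.59 without HFpEF replicate 3 (95% CI -0.81 to -0.37, adjusted p = 0.0199 from limma), so the lower level was also measured without that library.

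Ppard, which encodes the PPAR found in most tissues, moved less and more evenly. Its FPKM was 4.70, 4.24 and 4.82 in Chow and 3.59, 3.89 and 3.71 in HFpEF, with HFpEF replicate 3 between replicates 1 and 2. The groups did not overlap, and the log2 fold change was -0.29 (95% CI -0.55 to -0.03, adjusted p = 0.183 from limma). Rxra, the shared binding partner, was 19.6, 18.3 and 17.0 FPKM in Chow and 16.2, 14.8 and 13.3 in HFpEF. Its log2 fold change was -0.32 (95% CI -0.59 to -0.05, adjusted p = 0.176 from limma), close to that of Ppard.

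Pparg, the receptor that drives the making of fat cells, was the most variable of the 10 genes in Chow. Its FPKM was 2.90, 4.65 and 3.67 in Chow and 4.01, 3.84 and 2.66 in HFpEF, so the HFpEF values lay within or just below the Chow range. These values rest on 122 to 192 reads per library, and the SD was 23.4% of the mean in Chow against a counting error of at most 9.05%. The log2 fold change was -0.09 (95% CI -0.64 to 0.46, adjusted p = 0.834 from limma). Of 12 adipocyte markers, 10 were tested. A gene could pass the minimum of 0.5 FPKM in 3 libraries through the HFpEF libraries alone, as Cfd did. No count or median of their changes is therefore given. The 12 markers summed to 124.4 to 136.8 FPKM in Chow and 151.2 to 204.8 in HFpEF. Cfd, the adipocyte protease adipsin, was at 0 in every Chow library and at 22.9 to 37.8 FPKM in HFpEF. Fabp4, an adipocyte fatty acid carrier that endothelial cells also make, was 84.3 to 94.8 FPKM in Chow and 60.5 to 69.8 in HFpEF. Plin4, another of the adipocyte markers, was 26.6 to 30.0 FPKM in Chow and 18.9 to 30.2 in HFpEF, with overlap. The part of adipocyte RNA in the Pparg level was not tested.

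Of the PGC-1 coactivators, Ppargc1a showed the strongest dependence on a single library. Its FPKM was 16.8, 15.4 and 15.6 in Chow and 15.1, 14.1 and 6.49 in HFpEF. HFpEF replicates 1 and 2 were at 94.6% and 88.7% of the Chow mean, just under the lowest Chow library, whereas replicate 3 was at 40.7%. The log2 fold change was -0.51 (95% CI -1.27 to 0.24, adjusted p = 0.351 from limma), and it was -0.13 without HFpEF replicate 3 (95% CI -0.31 to 0.06, adjusted p = 0.365 from limma). Ppargc1b was 5.19, 6.24 and 5.43 FPKM in Chow and 4.49, 4.57 and 3.43 in HFpEF. All 3 HFpEF libraries were below Chow, and the log2 fold change was -0.43 (95% CI -0.79 to -0.07, adjusted p = 0.170 from limma). It was -0.30 without HFpEF replicate 3.

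The ERR genes were all below Chow in every HFpEF library. Esrra (ENSMUSG00000024955; GRCm38 chromosome 19 from 6910977 to 6921813, minus strand) had by far the highest level of the 10 genes, with 79.0, 75.7 and 74.9 FPKM in Chow and 59.1, 62.8 and 40.1 in HFpEF. Chow averaged 76.6 ± 2.19 FPKM (SD, n = 3) and HFpEF 54.0 ± 12.2 (SD, n = 3). The log2 fold change was -0.53 (95% CI -0.98 to -0.09, adjusted p = 0.172 from limma), and -0.33 without HFpEF replicate 3 (95% CI -0.48 to -0.18, adjusted p = 0.0347 from limma). In GENCODE M21, 73 of its 4387 exon bases are shared with Trmt112 on the opposite strand and 91 with Mir6990, and its FPKM gave whole reads only with an exon length of 5078 bases, so its level would be higher with the M21 length.

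Esrrb was 5.31, 5.05 and 5.20 FPKM in Chow and 3.74, 3.82 and 1.74 in HFpEF. The Chow libraries were within 2.54% (SD over mean), and HFpEF replicates 1 and 2 lay close together at 72.1% and 73.6% of the Chow mean, with replicate 3 at 33.5%. The log2 fold change was -0.81 (95% CI -1.52 to -0.10, adjusted p = 0.183 from limma), and -0.45 without HFpEF replicate 3 (95% CI -0.67 to -0.23, adjusted p = 0.0400 from limma). Esrrg was 8.56, 8.61 and 8.20 FPKM in Chow and 7.39, 6.48 and 3.61 in HFpEF. Its log2 fold change was -0.59 (95% CI -1.21 to 0.02, adjusted p = 0.227 from limma). Without HFpEF replicate 3 it was -0.29 (95% CI -0.51 to -0.07, adjusted p = 0.116 from limma).

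Nrf1, for nuclear respiratory factor 1, was the only regulator with a higher mean in HFpEF. Its FPKM was 1.43, 1.44 and 1.30 in Chow and 1.40, 1.64 and 1.66 in HFpEF. HFpEF replicate 1 was within the Chow range and the other HFpEF libraries above it. The log2 fold change was 0.15 (95% CI -0.23 to 0.54, adjusted p = 0.576 from limma), and quantile normalization turned it to -0.02. Nrf1 had the lowest level of the 10 genes, with 162 to 330 reads per library.

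**Figure D2:**
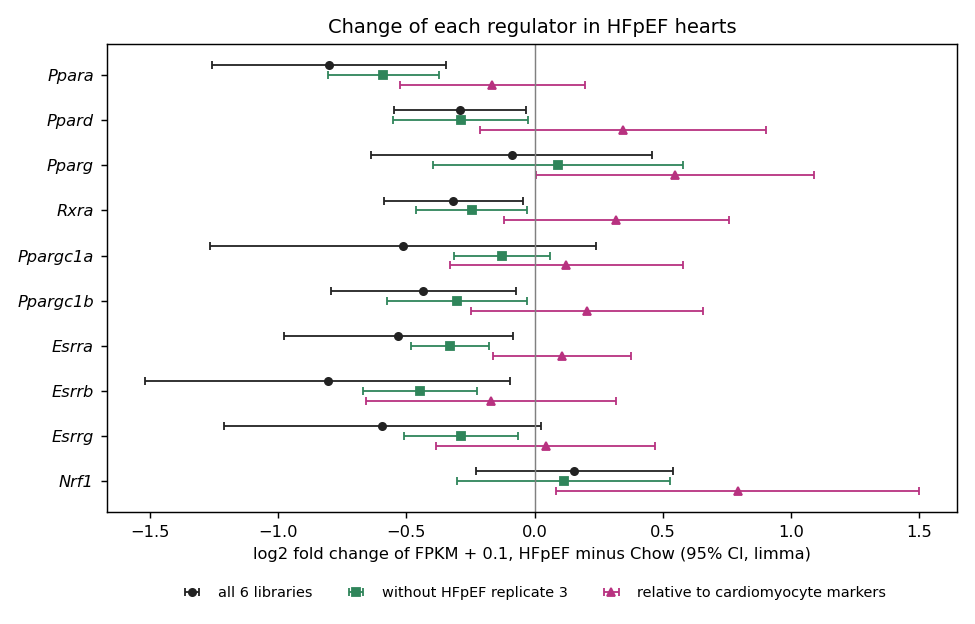
Log2 fold change of FPKM + 0.1, HFpEF minus Chow (horizontal axis), with 95% confidence intervals from limma, for each regulator. Black circles use all 6 libraries, green squares leave out HFpEF replicate 3, and pink triangles are relative to the mean of 12 cardiomyocyte markers. The black points of 9 genes lie below 0, and the pink points of 8 genes lie above 0.

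The order of the levels in Chow, on the FPKM scale, which is per length of exon, was Esrra, Rxra, Ppargc1a, Ppara, Esrrg, Ppargc1b, Esrrb, Ppard, Pparg and Nrf1. The ranges of Ppargc1b and Esrrb overlapped, as did those of Ppard and Pparg, and the other neighbours were apart. In HFpEF the first 6 places were the same, and Esrrb dropped from place 7 to place 9, below Ppard and Pparg. There only Esrra and Nrf1 were apart from their neighbours, and the ranges of all other neighbours overlapped. The wider ranges came with HFpEF replicate 3, which was the lowest HFpEF library for 8 of the 10 genes, the exceptions being Ppard and Nrf1. Set against Chow, the median of the 10 genes was at -0.26, -0.29 and -0.81 on the log2 scale in HFpEF replicates 1, 2 and 3.

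**Figure D3:**
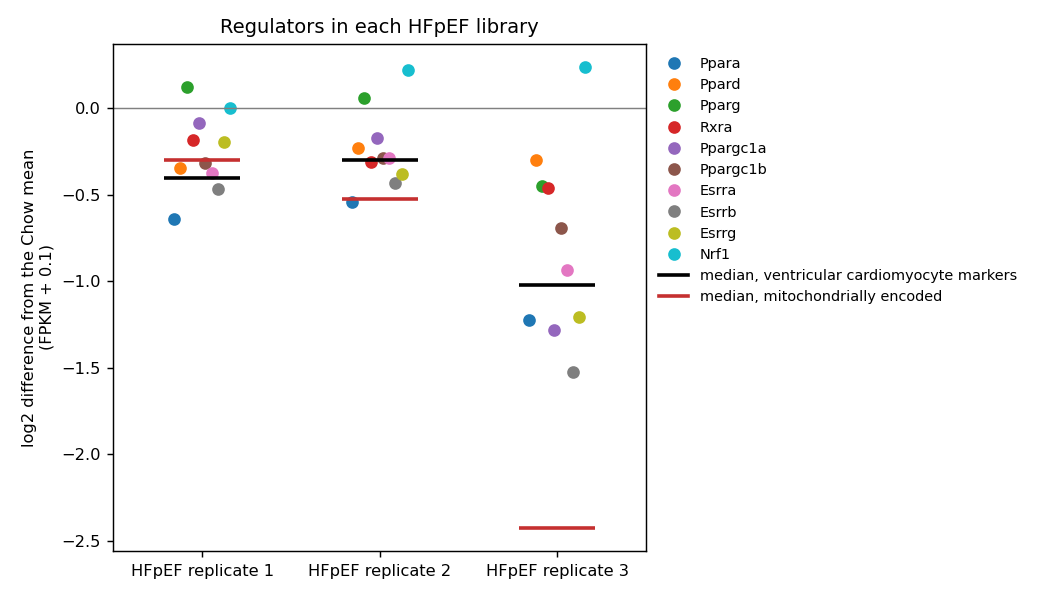
Log2 difference from the Chow mean (vertical axis, of FPKM + 0.1) of each regulator in the 3 HFpEF libraries. Black and red bars give the median of 12 cardiomyocyte markers and of 13 mitochondrially encoded genes in the same library. Ppara is the lowest regulator in replicates 1 and 2, and Esrrb in replicate 3, where the cardiomyocyte median is -1.02.

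Ratios between regulators of the same library do not depend on the scaling between libraries. The FPKM ratio of Ppara to Ppard was 2.06, 2.28 and 2.23 in Chow and 1.79, 1.76 and 1.14 in HFpEF, a log2 difference of -0.51, or -0.30 without HFpEF replicate 3. The ratio of Ppara to Rxra was 0.493, 0.529 and 0.630 in Chow and 0.397, 0.465 and 0.320 in HFpEF, a log2 difference of -0.49. For both ratios the HFpEF values were all under the Chow values, with p = 0.1 by a two-sided exact permutation test, which can go no lower with 3 mice a group, and 0.25 after adjustment over the 5 ratios. Each HFpEF library thus held less Ppara relative to its sister gene and to its partner than any Chow library. A ratio within a library can still shift with the mix of cells, and the part of that mix was not tested. The groups overlapped for the other 3 ratios. The ratio of Esrra to Esrrg was 8.79 to 9.23 in Chow and 8.0 to 11.1 in HFpEF (exact permutation p = 0.7, 0.875 adjusted). That of Ppargc1a to Ppargc1b was 2.46 to 3.24 in Chow and 1.89 to 3.36 in HFpEF (exact permutation p = 0.9, 0.9 adjusted). That of Ppargc1a to Ppara was 1.45 to 1.74 in Chow and 1.53 to 2.35 in HFpEF (exact permutation p = 0.3, 0.5 adjusted).

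**Figure D4:**
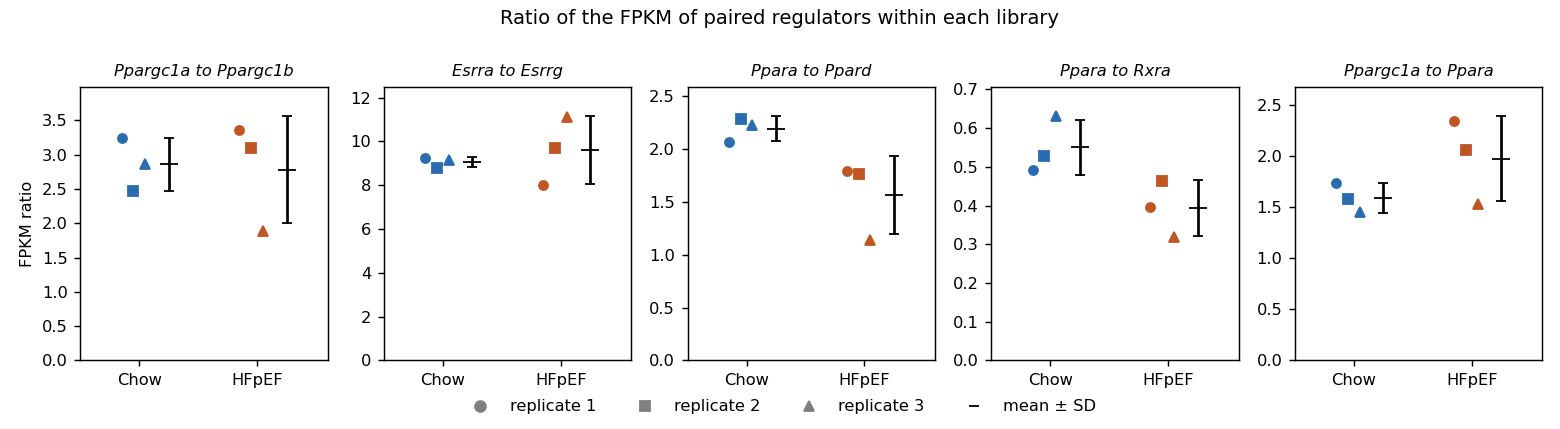
Ratio of the FPKM of paired regulators within each library (vertical axis, linear, from 0), with symbols for the replicate and bars for the mean ± SD. The groups are apart for Ppara to Ppard and for Ppara to Rxra, and overlap for the other 3 ratios.

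The markers of ventricular cardiomyocytes moved with the regulators. All 12 markers had a negative log2 fold change, with a median of -0.55 and a mean of -0.64, and 5 had an unadjusted p under 0.05, against 13.1% of all tested genes in the lower direction. Without HFpEF replicate 3 this count was 10 (7 at an adjusted p under 0.05, limma), against 15% and 5.5% of all tested genes, and the median was -0.33. Every HFpEF library was below every Chow library for 11 of the 12 markers, against 19.8% of all tested genes. The median of the markers was -0.41, -0.30 and -1.02 relative to the Chow mean in HFpEF replicates 1, 2 and 3. Relative to the mean of these markers, 8 of the 10 regulators had a positive log2 fold change. In that fit the median of all tested genes also moved, to 0.62, and 46.8% of them were at an unadjusted p under 0.05 but only 0.309% in the lower direction. Ppara then had a log2 difference of -0.16 (95% CI -0.53 to 0.20) and Esrrb -0.17 (95% CI -0.66 to 0.32), whereas Esrra had 0.11 (95% CI -0.16 to 0.37) and Ppargc1a 0.12 (95% CI -0.33 to 0.58). Pparg and Nrf1 were higher than the markers at an unadjusted p under 0.05, with 0.55 and 0.79 (adjusted p = 0.105 and 0.0913 from limma). The part of cardiomyocyte number in the regulators' levels was not tested. Endothelial markers had a median log2 fold change of -0.19 and macrophage markers 0.75. Fibroblast markers had a median of 2.03, and mitochondrially encoded genes -1.07. Of the 13 mitochondrially encoded genes, 10 were below Chow in every HFpEF library, against 19.8% of all tested genes. Without HFpEF replicate 3 the medians were 0.41 for macrophage markers, 0.99 for fibroblast markers and -0.42 for mitochondrially encoded genes.

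A hand-written list of 29 binding partners and coregulators spread around 0, with a median log2 fold change of -0.07. Of these genes, 3 were lower and 1 higher at an unadjusted p under 0.05, and the background was 13.1% and 10.2%. Perm1, a muscle protein that works with PGC-1 and the ERRs, was the most abundant, with 94.5 to 100.3 FPKM in Chow and 66.8, 69.1 and 42.1 in HFpEF. Its log2 fold change was -0.74 (adjusted p = 0.128 from limma, and 0.0139 without HFpEF replicate 3). Rxrg, the retinoid X receptor of striated muscle, was 27.7 to 34.6 FPKM in Chow and 11.5 to 23.3 in HFpEF (log2 fold change -0.76, adjusted p = 0.187 from limma), and its log2 fold change was -0.42 without HFpEF replicate 3. Med1, a Mediator subunit that contacts nuclear receptors, had a log2 fold change of -0.32. Pprc1, the third member of the PGC-1 family, went the other way, with 2.65 to 2.83 FPKM in Chow and 3.28, 4.01 and 5.60 in HFpEF (log2 fold change 0.61, adjusted p = 0.161 from limma, and 0.40 without HFpEF replicate 3). Nr1d1, a repressor of the circadian clock, was 49.5 to 58.6 FPKM in Chow and 65.9, 40.5 and 21.3 in HFpEF, with overlap.

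Of 32 PPAR target genes, all tested, 23 were lower and 1 higher at an unadjusted p under 0.05, and 24 were below Chow in every HFpEF library. Over all tested genes these shares were 13.1%, 10.2% and 19.8%. The median log2 fold change was -0.65, or -0.43 without HFpEF replicate 3. Fabp3, the fatty acid carrier of heart muscle, was the most abundant, with 2996 to 3692 FPKM in Chow and 1452 to 2057 in HFpEF (log2 fold change -0.92). Acaa2, a thiolase of β-oxidation, had a log2 fold change of -0.82. Acot2, a mitochondrial thioesterase, was 41.5 to 43.2 FPKM in Chow and 24.2, 27.4 and 24.8 in HFpEF (log2 fold change -0.73, adjusted p = 0.0643 from limma). Plin5, which coats lipid droplets next to mitochondria, was 60.5 to 63.9 in Chow and 41.1, 38.5 and 32.1 in HFpEF. Acot1 had a log2 fold change of -0.65, but it is close in sequence to Acot2 and reads may have been split between them. Ucp2, a mitochondrial carrier, was higher, with 9.51 to 10.3 FPKM in Chow and 16.1 to 18.7 in HFpEF (log2 fold change 0.79, adjusted p = 0.0596 from limma). Cpt1b, the muscle form of the enzyme that admits fatty acids to mitochondria, was 0.505 to 1.40 FPKM in Chow and 0.514 to 0.578 in HFpEF. Of its 3372 exon bases, 2744 are shared with Gm44502, so reads of this gene could not be assigned to it alone.

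Of 29 ERR and PGC-1 target genes, 28 were lower at an unadjusted p under 0.05 and all 29 were below Chow in every HFpEF library. Over all tested genes these shares were 13.1% and 19.8%. Such separation was not particular to this list, as 11 of the 12 ventricular cardiomyocyte markers were also below Chow in every HFpEF library. The median log2 fold change of the 29 target genes was -0.72, or -0.48 without HFpEF replicate 3. Slc25a4, which carries ATP out of mitochondria, was 1864 to 1904 FPKM in Chow and 844.5 to 1271 in HFpEF. Ckmt2, the mitochondrial creatine kinase of muscle, was 1435 to 1535 FPKM in Chow and 623.6 to 987.2 in HFpEF (log2 fold change -0.87). Cox7a1, a muscle form of a cytochrome oxidase subunit, had a log2 fold change of -1.07, Fh1, the fumarase of the citric acid cycle, -0.75, and Ndufb5, of complex I, -0.66. Atp5a1, an ATP synthase subunit, had -0.65. In all 4 lists 0 genes passed an adjusted p under 0.05 with all libraries (limma), against 0.0984% of all tested genes. The count was 27 of these 29 genes, all lower, without HFpEF replicate 3, and 20 lower and 1 higher of the 32 PPAR target genes, against 8.35% of all tested genes in either direction and 5.5% in the lower one.

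Of 25 genes for NRF1 targets and mitochondrial gene expression, 16 were lower and 1 higher at an unadjusted p under 0.05, against 13.1% and 10.2% of all tested genes, with a median log2 fold change of -0.40. Cox4i1, a cytochrome oxidase subunit, was 945.7 to 980.7 FPKM in Chow and 515.7 to 666.9 in HFpEF. Cyc1 of complex III had a log2 fold change of -0.77, Lrpprc, which stabilizes mitochondrial messages, -0.59, Twnk, the helicase of mitochondrial DNA, -0.52, and Tomm22 of the import pore -0.51. Cpox, an enzyme of heme synthesis, had -0.40. Fmr1, which encodes an RNA-binding protein, was the higher one, with 0.53. With HFpEF replicate 3 left out, 11 of the 25 fell at an adjusted p under 0.05 (limma), against 5.5% of all tested genes. The 4 lists were written by hand. They hold known partners and coregulators, known targets and genes of mitochondrial gene expression, not genes bound in these hearts.

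**Figure D5:**
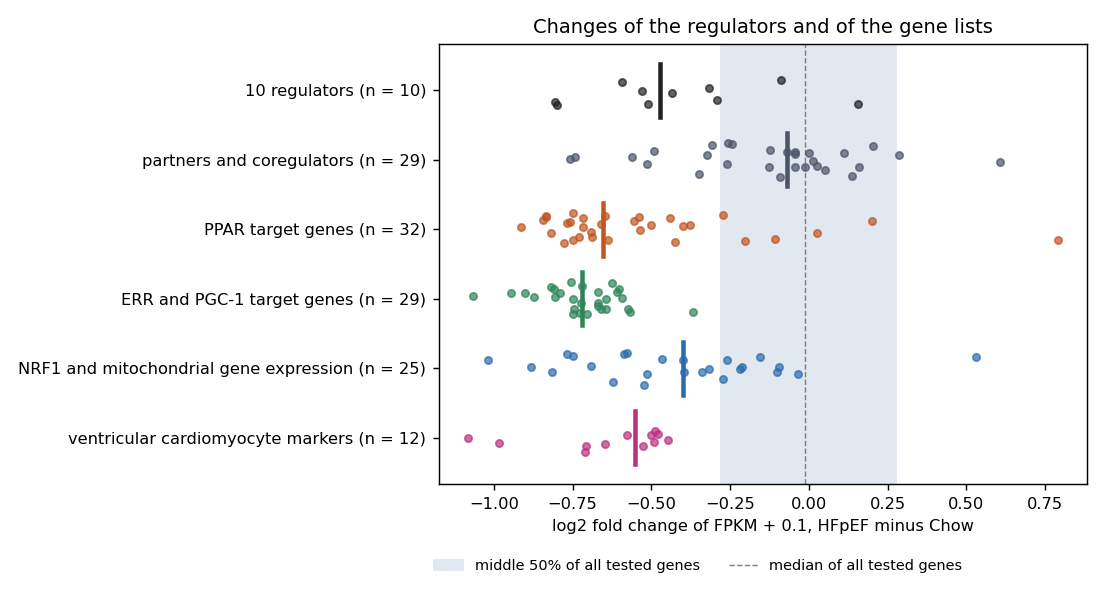
Log2 fold change of FPKM + 0.1, HFpEF minus Chow (horizontal axis), of the 10 regulators, the genes of 4 pathway lists and 12 cardiomyocyte markers. Each point is a gene, vertical bars are medians, the band holds the middle 50% of all tested genes and the dashed line their median. The partners and coregulators centre near 0, and the medians of the other groups lie between -0.72 and -0.40.

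The promoters of the regulators were searched for binding motifs of the same factors, in RefSeq windows on GRCm38.p6 that run from 250 bases before to 50 bases after a start of transcription. Windows were found for 9 of the 10 genes, 17 in all. The NRF1 core GCATGCGC was present on either strand in 2 of the 17 windows (11.8%), those of Ppara and Esrra, and in 2.71% of all 32851 windows. The ERR element TCAAGGTCA was in 0 of the 17 windows and in 0.423% of all windows. A direct repeat of AGGTCA with 1 base between was in 0 of 17 and 0.0396% of all windows, and the cyclic AMP response element TGACGTCA in 0 of 17 and 1.79% of all windows. In the windows of the NRF1 list the core was in 7 of 26 (26.9%). Windows 1 and 2 of Alas1 overlap and held the same sites, as did windows 1 and 2 of Fmr1. The list was written to hold NRF1 targets, so this share is a description only. Beyond the regulators, 9 genes of the 4 lists held the core, of which 7 were lower in HFpEF at an unadjusted p under 0.05, 1 was higher (Fmr1) and 1 was neither (Rxrb). Over all tested genes 13.1% were lower and 10.2% higher. In the 4 lists, in the order given above, 10.3%, 71.9%, 96.6% and 64% of the genes were lower, so this count is no result about the core. The sites of Ppara and Esrra are shown with those of 4 of these genes, Cycs, Acadm and Sdhb, which were lower, and Fmr1. These 4 were picked after their values were seen, so their directions are no result about the core. Capitals mark the core, and each sequence runs 5′ to 3′ on the strand of the gene.
Ppara: gctcggtggcGCATGCGCgcggactagg
Esrra: cccctgttttGCATGCGCaggccggccc
Cycs: atgctagctcGCATGCGCgcgcacaaac
Acadm: ggagcaggacGCATGCGCagagggcctt
Sdhb: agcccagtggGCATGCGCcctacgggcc
Fmr1: ccaggagggcGCATGCGCgtgctccact

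The Ppara site lies at chr15:85735737-85735764 on the plus strand, with the first base of the core at -29 from the start, and the core is matched a second time on the other strand 2 bases away. The Esrra site lies at chr19:6921825-6921852 on the minus strand, with the first base of the core at -34. The cores of Cycs (chr6:50566612-50566639, minus), Acadm (chr3:153944784-153944811, minus) and Sdhb (chr4:140961207-140961234, plus) start at -60, -158 and -54, and that of Fmr1 (chrX:68678440-68678467, plus) at -91. Cycs, cytochrome c, was 115.5, 119.7 and 134.4 FPKM in Chow and 78.4, 83.6 and 45.2 in HFpEF. Acadm, the medium-chain acyl-CoA dehydrogenase, had a log2 fold change of -0.72 and Sdhb, of complex II, -0.73 (adjusted p = 0.116 and 0.119 from limma). Fmr1 was 2.14, 2.06 and 2.08 FPKM in Chow and 2.81, 2.75 and 3.74 in HFpEF, above Chow in every library (adjusted p = 0.140 from limma). A match of letters does not show that NRF1 binds there.

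The genes whose pattern over the 6 libraries was closest to that of Ppara were Cox6b1, Slc25a4 and Supv3l1, out of 12119 protein-coding genes. Their log2 values, centred on the mean of each gene, differed from those of Ppara by a root mean square of 0.042, 0.050 and 0.054. Cox6b1, a cytochrome oxidase subunit, was 539.5, 567.5 and 602.6 FPKM in Chow and 366.8, 392.3 and 260.5 in HFpEF. The closest to Ppargc1b were Mif, Dnajc30 and Mrpl19, at 0.018, 0.031 and 0.032. Mif, a cytokine, was 66.3, 76.5 and 68.0 FPKM in Chow and 57.1, 57.1 and 43.8 in HFpEF. These distances are a description and carry no test.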

How the data were processed

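Left ventricular RNA of 3 Chow and 3 HFpEF mice was sequenced, and groups were taken from the sample titles. Per its methods, the study used HISAT2 for alignment and featureCounts for counting, and the authors deposited the result as FPKM. The processing notes name GRCm38, and the annotation release and FPKM formula are not given in the sources used here. Of 54532 identifiers, 54495 are in GENCODE M21. FPKM times exon length was a whole multiple of 1 step per library for 96.1% to 96.2% of values above 0 (relative tolerance 1e-06), which gave reads per gene. Where the M21 length failed, as for Esrra, another whole length was searched.

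Libraries were put on 1 scale by median-of-ratios factors (0.999 to 1.00). All factors were near 1, so the deposited FPKM were already close to that scale. A pseudocount of 0.1 preceded the log2, and the fit was made in limma 3.58.1 (lmFit, eBayes with trend and robust options, R 4.3.3) for genes of at least 0.5 FPKM in at least 3 libraries. P-values were adjusted by Benjamini-Hochberg over all 14227 genes. The study itself tested read counts, which differ from the FPKM used here. The fit was tested on simulated data whose changes were larger than those of the regulators, with no library set apart. That test does not cover changes of the size seen here. Ratios were compared by exact permutation. Python 3.11.15 was used with scipy 1.17.1. Alternatives were other scalings, pseudocounts, minimums, eBayes options, voom on recovered reads, a replicate block and leaving out each library.

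The members and lists were chosen with earlier results of these data known. Beside the 10 regulators, the text names from each pathway list up to 4 genes of lowest p and 2 of highest level, from marker lists up to 3 of highest level, and the 3 genes nearest in pattern to the 2 regulators of lowest p. Genes named for a promoter match or a shared exon were chosen after their values were seen. Lists of brown adipocyte, liver and skeletal muscle markers were also summed. Their median log2 fold changes were -0.28 (1 gene tested, Cidea), 4.57 (3 genes) and -0.55 (4 genes). The liver median includes Cyp2e1, which passed the FPKM minimum only through the HFpEF libraries, so it is a description only. The 5 brown adipocyte markers summed to 15.6 to 20.0 FPKM in Chow and 23.6, 25.0 and 10.8 in HFpEF. Ucp1 was at 0 in every Chow library and at 6.00, 8.33 and 0 FPKM in HFpEF. Dio2 was 0.0845 to 0.205 FPKM in Chow and 0.376 to 1.08 in HFpEF. Neither Ucp1 nor Dio2 was tested. Intervals of counts cover counting error only.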

Additional observations from a re-analysis of the deposited data

How the results depend on the processing

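The direction of the log2 fold change of all 10 regulators was kept with FPKM as deposited, a pseudocount of 1 or of 0.01, all genes kept, a minimum of 1 FPKM, eBayes without trend or robust options, voom on recovered reads and the replicate block. Relative to cardiomyocyte markers it turned positive for Ppard (0.35), Pparg (0.55), Rxra (0.32), Ppargc1a (0.12), Ppargc1b (0.20), Esrra (0.11) and Esrrg (0.043), while the median of all genes moved to 0.62. Quantile normalization turned Nrf1 to -0.022. Pparg ran from -0.254 to 0.091 when 1 library was left out, being 0.077 without Chow replicate 2 and 0.091 without HFpEF replicate 3. The number of regulators under an adjusted p of 0.05 was 0 in every alternative except without HFpEF replicate 3, where it was 3, over a range of 0 to 3. At an unadjusted p under 0.05, 6 regulators were lower with all libraries and the usual scaling, against 13.1% of all tested genes. The number lower was 4 with quantile normalization, 7 with voom and 2 to 7 when 1 library was left out. Relative to cardiomyocyte markers 0 were lower and 2, Pparg and Nrf1, were higher, against 0.309% of all tested genes lower and 46.8% in either direction. The share of all tested genes was not counted for quantile normalization, voom or the replicate block.

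For the lists, the number of genes at an unadjusted p under 0.05 relative to cardiomyocyte markers was 17 of the partners and coregulators (4 with all libraries and the usual scaling), 4 of the PPAR targets (24), 3 of the ERR and PGC-1 targets (28) and 5 of the NRF1 list (17), while 46.8% of all tested genes were at that p and 0.309% in the lower direction. With quantile normalization it was 15 for the PPAR targets and 10 for the ERR and PGC-1 targets. Leaving out 1 library gave 1 to 8 partners and coregulators, with 2, 1 and 1 without Chow replicates 1, 2 and 3 and 8 without HFpEF replicate 1. It gave 13 to 29 ERR and PGC-1 targets, with 15, 13 and 13 without Chow replicates 1, 2 and 3. Of all tested genes, 14.6%, 13.4% and 14.8% were at that p in either direction without Chow replicates 1, 2 and 3. Without HFpEF replicates 1, 2 and 3 the shares were 24.8%, 24.5% and 25.2%. The causes were not tested. Same-numbered libraries of the 2 groups did not deviate together (correlation -0.07 to -0.04). These are deviations from means of 3 libraries, with HFpEF replicate 3 apart, so the check cannot exclude a link between same-numbered libraries. With the replicate block 6 regulators were lower at an unadjusted p under 0.05, and 0 had an adjusted p under 0.05. The ratios of Ppara to Ppard, Ppara to Rxra and Ppargc1a to Ppara kept their direction with a pseudocount and without any 1 library. The log2 difference of Ppargc1a to Ppargc1b (-0.07) turned to 0.02 without Chow replicate 1 and 0.18 without HFpEF replicate 3, and that of Esrra to Esrrg (0.07) to -0.04 without HFpEF replicate 3. Reads limit Nrf1 and Pparg most, with counting errors of up to 7.86% and 9.05%.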
